A study of Mus musculus with 7 samples.

Results

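The genes described here encode the nuclear subunits of respiratory complexes II, III and IV, the electron carrier cytochrome c and complex V, the ATP synthase. They were chosen by symbol alone. A probe set was taken when its single gene symbol in the platform annotation was Sdha, Sdhb, Sdhc, Sdhd, Cyc1 or Cycs or began with Uqcr, Cox4, Cox5, Cox6, Cox7, Cox8 or Atp5. The rule found 86 probe sets of 47 genes, among 12393 genes with a probe set of a single symbol; the probe set with the highest mean stood for the gene. Of the 47 genes, 45 had a mean above the filter on dim probe sets and entered the test among 8077 genes. Cox7a1 and Cox8b, isoforms known from muscle, did not.

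RNA of LSK cells, the bone marrow fraction without lineage markers that carries Sca-1 and c-Kit and holds the blood stem cells and early progenitors, was measured on 7 arrays. The 4 Lkb1 KO samples, numbered 4 to 7, came from Lkb1 L/L, rosa26CreERT2 mice, in which tamoxifen activates a Cre recombinase made throughout the body from the Rosa26 locus. The 3 Lkb1 WT samples, numbered 5 to 7, came from Lkb1 L/L mice without Cre. C57BL/Ka-CD45.2:Thy-1.1 was the common strain. Every mouse had floxed alleles and 5 days of tamoxifen, with cells sorted 1 day later, so that the groups differed by Cre as well as by the deletion. Deletion was not restricted to blood cells. Age was not stated. Nothing in the labels ties a sample to its own animal, and the spread behind every p-value may therefore be technical.

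Complexes II to IV pass electrons to oxygen, and complexes III and IV pump protons across the inner mitochondrial membrane as they do so. Complex II, succinate dehydrogenase, is also an enzyme of the TCA cycle and feeds electrons into ubiquinone, which complex III oxidizes to reduce cytochrome c. The ATP synthase lets the protons flow back and makes ATP. Quiescent blood stem cells are known to rely little on respiration, and Lkb1 (gene Stk11) encodes the kinase that activates AMPK, a sensor of cellular energy.

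Values below are log2(signal + 16) after quantile normalization, and a difference is KO minus WT on that scale, with the standard error from limma. Adjusted p is the Benjamini-Hochberg value from limma over all 8077 genes, with a threshold of 0.05. The deposited signals were brighter in KO, with trimmed means of 360.1 to 424.9 in KO and 227.9 to 339.4 in WT, so every difference is relative to the bulk of genes on the array. Without normalization the median gene was 0.34 higher in KO, and 97.0% of the genes called were higher, while 46.2% were with it. The Actb control gave a 3' to 5' ratio, which grows as RNA is shortened, of 11.4 to 12.3 in KO and 12.6 to 13.1 in WT. That of the Gapdh control was 7.49 to 7.95 in KO, within the 6.68 to 9.46 of WT. Because the Actb ratio separated the groups, a fit with it as a covariate could tell it from genotype only poorly. Stk11 in its brighter probe set averaged 7.40 ± 0.24 (SD, n = 3) in WT and 6.84 ± 0.33 (SD, n = 4) in KO, with overlapping groups (limma adjusted p = 0.117). A dim second probe set, outside the fit, lay in the other direction, at 4.69 in WT and 5.40 in KO, also with overlapping groups. Whether either probe set lies in the deleted part is not known here. Of the genes for the gate's positive markers, Kit exceeded the background level of 12.16 signal units on all 7 arrays and was lower in KO, with a difference of -0.43 (limma adjusted p = 0.0469), while Ly6a (Sca-1) was not analysed here. Cd34 and Flt3, progenitor genes outside the gate, also exceeded that level on all 7 arrays. Mature granulocyte and monocyte markers were also present. Of 13 tested, 10 were lower and none higher in KO, and the summed normalized signal of the 14 in the table lay between 31883 and 44277 in WT and between 10692 and 14751 in KO. Of 5 erythroid markers tested, 1 was higher and 1 lower (summed signal 690 to 853 in KO, 947 to 1204 in WT), and of 4 megakaryocyte markers none passed (1152 to 1495 in KO, 1444 to 1751 in WT). T cell genes Cd3e and Cd3g were at or below background on every array. The other T and B cell genes measured were not all so. Ms4a1 exceeded background on all 7 arrays (signal 15.9 to 42.6) and Cd8a on 6 of 7 (11.2 to 35). Cd4 and Cd79a each exceeded it on 1 array. No T or B cell gene of this list entered the test. What part the marker levels have in the results below was not tested.

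Most of the respiratory genes lay slightly higher in KO, and few by enough to pass. Of the 45 tested, 2 rose and 0 fell at an adjusted p under 0.05 in limma, where 2.48% of all tested genes rose and 2.88% fell. The 2 were Uqcrq, a complex III gene, and Atp5k, an ATP synthase gene. At an unadjusted p under 0.05, 16 of 45 were higher and 1 was lower, the testis isoform gene Cox8c, beside 11.8% and 13.6% of all tested genes. The difference was above 0 for 36 of 45 genes, or 80%, beside 47.7% of all genes. Every KO sample was above every WT sample for 18 genes, or 40%, beside 11.4% of all genes, and every KO sample was below every WT sample for 2, beside 12.7%. Some of these separations were very narrow, as in Atp5g3, Cox4i1 and Cox5b. The median difference was 0.14 over the 45 genes and -0.02 over all tested genes. It ranged from -0.39 for Cox4i2 to 0.81 for Atp5k. The count and the median depended on the processing. With signals as deposited, 17 of the 45 were higher with a median of 0.51, where 17.0% of all genes were called higher. The median of all genes was then 0.34. With median centring 7 of the 45 were higher, where 6.79% of all were, and the medians were 0.24 and 0.08. None passed with no filter on dim probe sets, with a block for sample number or with the Actb ratio as a covariate. With the Actb ratio the median was 0.09, beside -0.02 over all genes. The median of the 45 less that of all genes was 0.15 in the main fit. It ran from 0.11 (Actb ratio) to 0.21 (mean of probe sets). In these bulk samples a change in the mix of cells and a change of RNA per cell cannot be told apart.

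The shift was seen in each KO sample. Measured for each gene from its WT mean, the median over the 45 genes was 0.16, 0.19, 0.13 and 0.14 across KO 4 to 7, against -0.05, 0.04 and 0.02 across WT 5 to 7. No KO sample came down to the highest WT sample, and the 4 KO samples differed among themselves by less than their distance from WT. The WT samples enter the mean they are measured from, which draws them toward 0, and the 4 KO samples share that baseline. Complex V gave 0.19, 0.20, 0.21 and 0.29 across KO 4 to 7, against -0.08, 0.04 and 0.03 across WT 5 to 7, with all KO samples above all WT samples, as did complex II, with 0.33, 0.31, 0.28 and 0.23 across KO 4 to 7, against -0.08, -0.08 and 0.07 across WT 5 to 7. In complex III the medians were 0.04, 0.10, -0.01 and 0.10 across KO 4 to 7, against -0.01, 0.02 and 0.01 across WT 5 to 7, and KO 6 lay below WT 6 and WT 7. In complex IV they were 0.09, 0.14, 0.09 and 0.07 across KO 4 to 7, against -0.05, 0.07 and -0.05 across WT 5 to 7, and KO 7 lay barely above WT 6. The medians of complex II rest on 4 genes and those of complexes III, IV and V on 9, 14 and 17. Whether the complexes differ from each other was not tested.

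**Figure D1:**
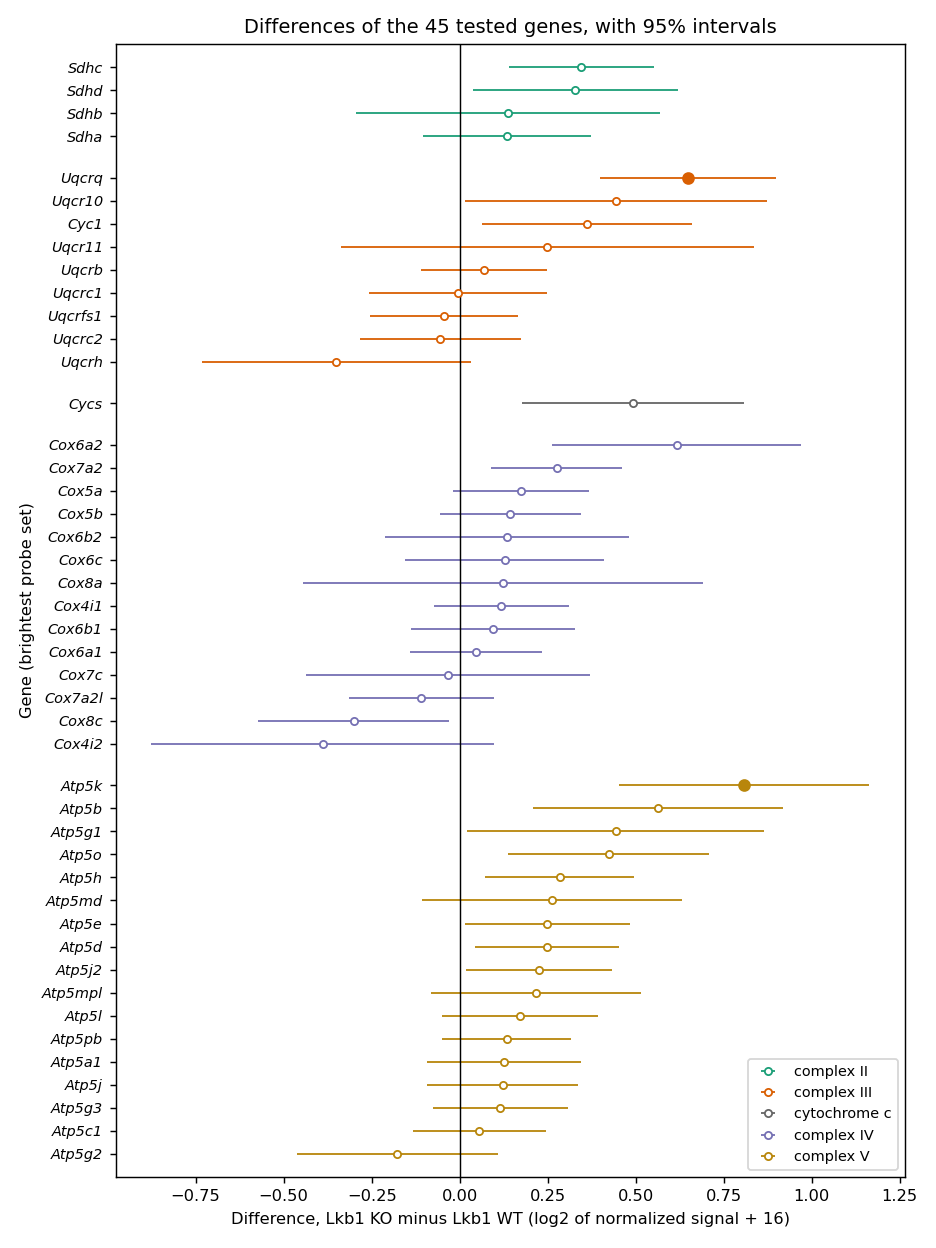
Difference between Lkb1 KO (4 samples) and Lkb1 WT (3 samples) on the log2(normalized signal + 16) scale for each of the 45 tested genes, grouped by complex, with the 95% interval from limma; filled points have an adjusted p under 0.05. Only Uqcrq and Atp5k are filled, and 36 of the 45 points lie to the right of 0.

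**Figure D2:**
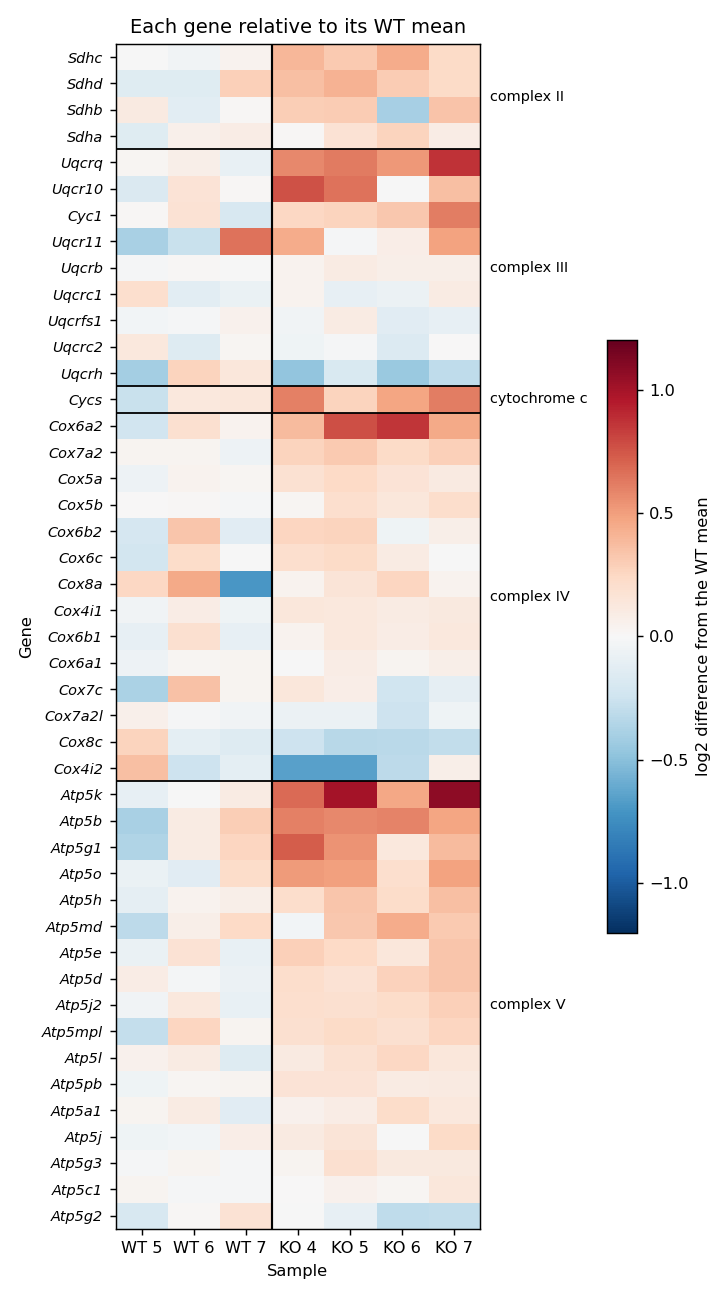
Each tested gene (rows, grouped by complex) in each sample (columns), as the log2 difference from the mean of the 3 WT samples. Red is above and blue below the WT mean; the KO columns are mostly red in complex V and of both colours in complexes III and IV.

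The stretches just before the transcription start of 3 of these genes are shown because their data bear on the description below. Cycs was higher in KO in each of its 3 probe sets, Atp5k was 1 of the 2 genes that passed, and Cox7a2l lay lower in KO in each of its 3 after quantile normalization, though 0.13 higher in the brightest as deposited. The sequences are the 250 bases before the start, 5' to 3' on the gene's strand, from RefSeq on GRCm38.p6. Capitals mark matches to the letters searched.
Cycs, chr6:50566570-50566819, minus strand: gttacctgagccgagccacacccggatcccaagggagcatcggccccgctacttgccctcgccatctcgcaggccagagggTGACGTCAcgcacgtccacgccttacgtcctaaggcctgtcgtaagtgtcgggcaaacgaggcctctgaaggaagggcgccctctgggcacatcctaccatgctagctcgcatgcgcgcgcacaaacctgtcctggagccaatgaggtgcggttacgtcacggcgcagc
Atp5k, chr5:108434400-108434649, minus strand: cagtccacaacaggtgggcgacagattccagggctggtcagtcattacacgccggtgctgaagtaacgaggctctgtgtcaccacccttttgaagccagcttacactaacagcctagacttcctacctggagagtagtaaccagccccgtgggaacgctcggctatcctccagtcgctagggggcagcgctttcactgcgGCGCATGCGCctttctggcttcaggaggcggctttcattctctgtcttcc
Cox7a2l, chr17:83514334-83514583, minus strand: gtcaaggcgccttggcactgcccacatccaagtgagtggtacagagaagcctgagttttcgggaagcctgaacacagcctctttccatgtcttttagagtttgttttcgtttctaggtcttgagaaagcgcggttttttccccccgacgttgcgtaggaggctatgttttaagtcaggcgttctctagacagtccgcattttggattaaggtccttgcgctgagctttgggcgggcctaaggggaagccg
The match in Cycs is TGACGTCA, the letters bound by CREB-family factors, beginning 169 bases before the start. That in Atp5k is the NRF1 pattern, GCGCA, any base, then GCGC, beginning 50 bases before it. No searched letters were found before the start of Cox7a2l.

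NRF1 and the ETS factor GABP are textbook regulators of nuclear respiratory genes, so their letters were counted in the windows from 250 bases before to 50 after the start, on both strands. RefSeq windows were matched for 35 of the 47 genes and compared with 27025 genes in all. The NRF1 pattern was present for 10 of the 35 (28.6%) and for 5.19% of all genes. CCGGAAG, for ETS factors, was present for 13 (37.1%) and for 9.93% of all. AAGATGGC, for YY1, was present for 3 (8.57%) and for 3.19% of all, GGGGCGGGG, a GC box, for 6 (17.1%) and for 12.9% of all, and TGACGTCA, a palindrome added after the Cycs window was read, for 2 (5.71%) and for 2.03% of all. A match describes the letters only, and each printed stretch holds at most 1. Atp5k also held the ETS letters from base 13 after the start, and Sdhd, Atp5h and Cox6a1 were the other genes with both NRF1 and ETS letters. The genes with no matched window were Sdhc, Cyc1, Uqcrb, Uqcrc2, Uqcrq, Cox4i1, Cox6c, Cox4i2, Cox6a2, Cox8c, Atp5a1 and Atp5mpl.

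Complex II was higher in KO in all 4 of its genes, by 0.13 to 0.35, where 47.7% of all tested genes were above 0. None passed, and 2 of 4 were higher at an unadjusted p under 0.05 (limma, 50%, beside 11.8% of all). Sdhc, 1 of the 2 membrane anchors that hold the ubiquinone site, was at 9.79, 9.70, 9.83 and 9.61 across KO 4 to 7, against 9.38, 9.35 and 9.43 across WT 5 to 7. Every KO sample lay above every WT sample, and the difference was 0.35 ± 0.09 (adjusted p = 0.0616). A dimmer probe set of Sdhc differed by 0.22, with overlapping groups. Its partner anchor Sdhd was at 8.84, 8.90, 8.79 and 8.72 across KO 4 to 7, against 8.34, 8.34 and 8.77 across WT 5 to 7. Here 1 KO sample, KO 7, lay below WT 7, the highest of WT, and the difference was 0.33 ± 0.13 (adjusted p = 0.156).

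The catalytic pair of complex II had smaller differences. Sdha, the flavoprotein that oxidizes succinate, was at 11.22, 11.38, 11.47 and 11.29 across KO 4 to 7, against 11.06, 11.27 and 11.29 across WT 5 to 7, so that the groups overlapped, with a difference of 0.13 ± 0.10 (adjusted p = 0.457). A dimmer probe set of Sdha gave 10.05, 9.77, 9.90 and 10.00 across KO 4 to 7, against 9.66, 9.50 and 9.65 across WT 5 to 7, without overlap, a difference of 0.33. Sdhb, the iron-sulfur subunit, was at 11.76, 11.77, 11.06 and 11.80 across KO 4 to 7, against 11.57, 11.33 and 11.48 across WT 5 to 7. KO 6 was the lowest of all 7 samples, while the other 3 KO samples were above WT, and the difference of 0.14 ± 0.19 (adjusted p = 0.689) was 0.32 without KO 6 (adjusted p = 0.134).

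In complex III, 1 of 9 genes rose (limma, 11.1%, beside 2.48% of all tested genes). Of its differences 5 of 9 were above 0 (55.6%, beside 47.7% of all), and those of the core proteins lay near 0. At an unadjusted p under 0.05 in limma, 3 of 9 were higher (33.3%, beside 11.8% of all). Uqcrq, a small subunit near the ubiquinone site, was at 9.94, 9.99, 9.89 and 10.23 across KO 4 to 7, against 9.39, 9.44 and 9.27 across WT 5 to 7. All 4 KO samples were above all WT samples, and Uqcrq rose from 9.37 ± 0.09 (SD, n = 3) to 10.01 ± 0.15 (SD, n = 4), by 0.65 ± 0.11 (limma adjusted p = 0.0237). Its other 3 probe sets were dim, with mean signals of 19.6 to 46.5, overlapped between the groups and gave 0.06, 0.16 and -0.65. The call rests on a probe set whose design suffix (_s_at) marks probes shared by several transcripts. It was lost in 6 of the 7 fits without 1 sample (adjusted p 0.0506 to 0.0647) and kept without KO 6 (0.0436). It was also lost with the second brightest probe set (0.06, limma adjusted p = 0.903) and the mean of the probe sets (0.36, adjusted p = 0.138). With no filter the adjusted p was 0.0581, and with a block for sample number over 6 samples 0.119 (difference 0.67). The call was lost too with the Actb ratio as a covariate (0.48, adjusted p = 0.58), where no gene of the 8077 passed.

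Cyc1, the cytochrome c1 that hands electrons to cytochrome c, was at 10.91, 10.94, 10.99 and 11.28 across KO 4 to 7, against 10.69, 10.84 and 10.48 across WT 5 to 7. The groups did not overlap, KO 7 was the highest, and the difference was 0.36 ± 0.13 (adjusted p = 0.131). Uqcr10, a small subunit beside cytochrome c1, was at 8.89, 8.78, 8.12 and 8.49 across KO 4 to 7, against 7.95, 8.29 and 8.14 across WT 5 to 7. KO 6 lay below WT 6 and WT 7 and the others were above WT, with a difference of 0.44 ± 0.19 (adjusted p = 0.184). Uqcrb, a subunit that contacts ubiquinone, was at 13.93, 13.99, 13.96 and 13.95 across KO 4 to 7, against 13.88, 13.90 and 13.88 across WT 5 to 7 in a very bright probe set, a separation of the groups by a small difference of 0.07 ± 0.08 (adjusted p = 0.614), and -0.11 with median centring. Its dimmer probe set gave 9.68, 9.82, 9.72 and 9.82 across KO 4 to 7, against 9.12, 9.74 and 9.23 across WT 5 to 7, with 1 WT sample, WT 6, among the KO values, and a difference of 0.40.

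Uqcrc1 was at -0.01 (95% interval -0.26 to 0.25), Uqcrc2 at -0.06 (-0.28 to 0.17) and the Rieske iron-sulfur protein gene Uqcrfs1 at -0.04 (-0.26 to 0.17), intervals that leave out a difference as large as that of Uqcrq. Uqcr11, a small subunit, was at 0.25 (-0.34 to 0.83), an interval that holds it, and WT 7 at 11.20 was the highest of its 7 values. Uqcrh, the hinge protein that links cytochrome c1 to its partner, lay in the other direction, at 9.62, 9.91, 9.65 and 9.79 across KO 4 to 7, against 9.69, 10.36 and 10.23 across WT 5 to 7. WT 5 was among the KO values, and the difference was -0.35 ± 0.17 (adjusted p = 0.235).

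Cytochrome c, encoded by Cycs, carries electrons from complex III to complex IV and is also known as a trigger of apoptosis once released from mitochondria. In its brightest probe set it was at 12.76, 12.43, 12.63 and 12.77 across KO 4 to 7, against 11.89, 12.28 and 12.29 across WT 5 to 7. All KO samples were above all WT samples, WT 5 was the lowest, and the difference was 0.49 ± 0.14 (limma adjusted p = 0.072), short of the threshold. The second probe set gave 11.28, 11.05, 11.24 and 11.27 across KO 4 to 7, against 10.34, 10.65 and 10.71 across WT 5 to 7, a difference of 0.64, and passed when each gene was represented by its second brightest probe set (limma adjusted p = 0.0409). The dimmest gave 10.27, 10.08, 10.04 and 10.22 across KO 4 to 7, against 9.34, 9.25 and 9.27 across WT 5 to 7, a difference of 0.86. KO and WT were apart in each of the 3 probe sets. With the mean of its probe sets Cycs was 0.67 higher and passed (limma adjusted p = 0.0189). In the brightest probe set it was 0.14 with the Actb ratio as a covariate (limma adjusted p = 0.912), where no gene of the 8077 passed. The adjusted p of that probe set ran from 0.0772 to 0.161 in the 7 fits without 1 sample.

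**Figure D3:**
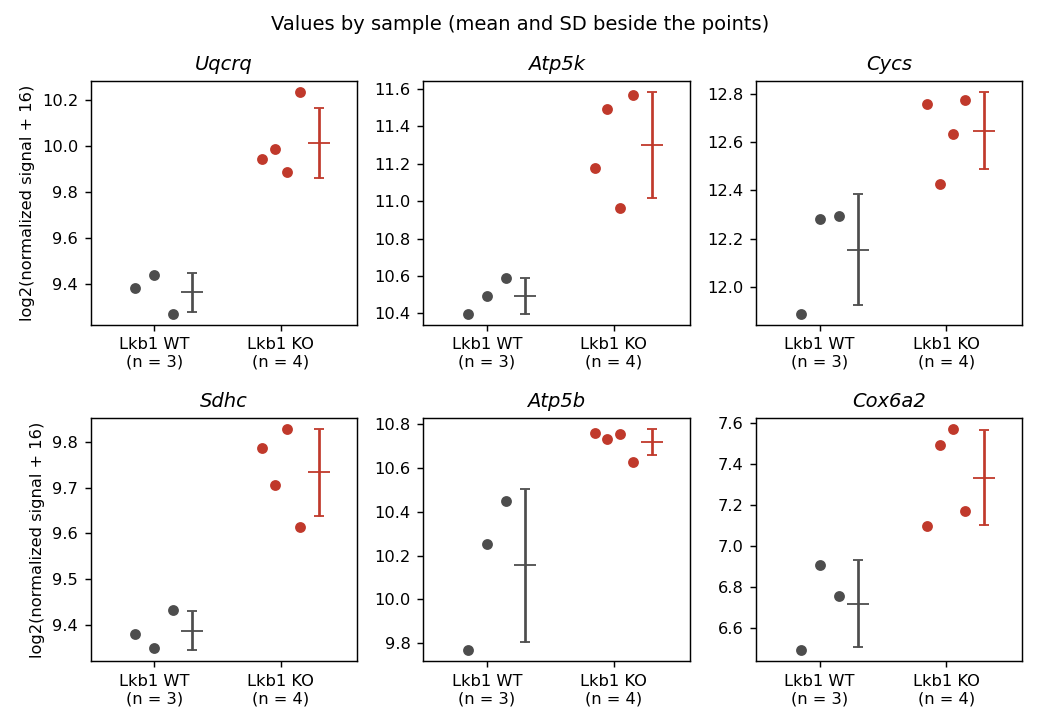
log2(normalized signal + 16) of 6 genes in each sample (points; 3 WT, 4 KO), with the mean and SD beside them; each panel has its own axis, which does not start at 0. KO and WT do not overlap in any of the 6 panels, and of the 6 genes only Uqcrq and Atp5k had an adjusted p under 0.05.

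In complex IV, 9 subunit genes of the form used in most tissues were tested. Their differences ran from -0.03 to 0.28, and 8 of 9 were above 0 (88.9%, beside 47.7% of all tested genes). None passed, and 1 was higher at an unadjusted p under 0.05 (limma, 11.1%, beside 11.8% of all). These nuclear subunits surround a catalytic core encoded by mitochondrial DNA. Cox7a2, the form of subunit 7a outside muscle, was at 13.23, 13.27, 13.19 and 13.25 across KO 4 to 7, against 12.99, 12.99 and 12.90 across WT 5 to 7. The groups did not overlap, and the difference was 0.28 ± 0.08 (adjusted p = 0.0831). A dimmer probe set of Cox7a2 differed by 0.31, with overlapping groups. Cox5a, Cox5b and Cox4i1, with differences of 0.17, 0.14 and 0.12, also had every KO sample above every WT sample, in Cox5b and Cox4i1 by a very narrow gap. Of the dimmer probe sets of Cox5b above the filter, those at 0.22 and 0.23 separated the groups and those at 0.04 and -0.26 did not. All 3 probe sets of Cox5a separated the groups, and the dimmest, at 11.59, 11.60, 11.39 and 11.42 across KO 4 to 7, against 10.99, 11.01 and 11.04 across WT 5 to 7, differed by 0.49. Cox6b1, the subunit facing the cytochrome c side, was at 13.32, 13.41, 13.37 and 13.41 across KO 4 to 7, against 13.19, 13.48 and 13.19 across WT 5 to 7, with WT 6 the highest of all, and differed by 0.09 ± 0.10 (adjusted p = 0.595).

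The remaining common subunits overlapped between the groups. Cox6a1 was at 0.05 (95% interval -0.14 to 0.23), Cox6c at 0.13 (-0.15 to 0.41), Cox8a at 0.12 (-0.45 to 0.69) and Cox7c at -0.03 (-0.44 to 0.37). In Cox8a, WT 7 stood apart, at 7.78 against 8.73 and 8.93 in the other WT samples. A dimmer probe set of Cox6c, at 11.53, 11.86, 11.35 and 11.55 across KO 4 to 7, against 10.93, 11.18 and 11.02 across WT 5 to 7, separated the groups by 0.53, and one of Cox6b1 by 0.28.

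Tissue isoforms of complex IV had differences of both signs, and none of the 4 tested passed. Cox6a2, the form of subunit 6a known from heart and skeletal muscle, was at 7.10, 7.50, 7.57 and 7.17 across KO 4 to 7, against 6.49, 6.91 and 6.76 across WT 5 to 7. All KO samples were above all WT samples, KO 4 and KO 7 by least, and the difference was 0.62 ± 0.15 (adjusted p = 0.0574), short of the threshold. Cox8c, known from testis, was at 7.22, 7.14, 7.15 and 7.18 across KO 4 to 7, against 7.74, 7.36 and 7.32 across WT 5 to 7. Its KO samples were all below its WT samples, WT 5 stood highest, and the difference was -0.30 ± 0.12 (adjusted p = 0.16), or 0.04 in the scaling as deposited, where the median gene was at 0.34. The testis isoform gene Cox6b2 was at 0.14 (adjusted p = 0.612), and Cox4i2, the form of subunit 4 known from lung and low oxygen, at -0.39 (adjusted p = 0.295). The muscle isoform genes below the filter, Cox7a1 and Cox8b, were at 0.10 and 0.03, with overlapping groups, and Cox8b exceeded the background level on 3 of 7 arrays.

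Cox7a2l, known for joining complexes III and IV into supercomplexes, lay lower in KO after quantile normalization, but not in the scaling as deposited, and did not pass. Its brightest probe set was at 13.17, 13.17, 12.99 and 13.19 across KO 4 to 7, against 13.29, 13.23 and 13.19 across WT 5 to 7. All KO samples were below all WT samples, KO 6 by most and the other 3 by little, and the difference was -0.11 ± 0.09 (adjusted p = 0.49). Its other 2 probe sets also had no overlap, with differences of -0.21 and -0.22. In the scaling as deposited the brightest was 0.13 higher in KO, below the shift of the median gene.

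Complex V had 16 of 17 genes above 0 (94.1%, beside 47.7% of all tested genes) and a median difference of 0.23. Every KO sample was above every WT sample for 8 of the 17 (47.1%), beside 11.4% of all genes. In limma 8 were higher at an unadjusted p under 0.05 (47.1%, beside 11.8% of all). Atp5k alone passed after adjustment (5.88%, beside 2.48% of all). Atp5k encodes subunit e, a small membrane subunit known for holding ATP synthase dimers together, and was at 11.18, 11.49, 10.96 and 11.57 across KO 4 to 7, against 10.40, 10.49 and 10.59 across WT 5 to 7. The 4 KO samples spread over more than the 3 WT samples and did not reach them, and Atp5k rose from 10.49 ± 0.09 (SD, n = 3) to 11.30 ± 0.28 (SD, n = 4), by 0.81 ± 0.16 (limma adjusted p = 0.0288), a 1.75-fold change on this scale, which adds 16 to each signal. Its second probe set differed by 0.66 and its dimmest, at 10.31, 10.32, 10.12 and 10.51 across KO 4 to 7, against 9.94, 10.11 and 9.99 across WT 5 to 7, by 0.30, both without overlap.

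The call of Atp5k was lost in 6 of the 7 fits without 1 sample (adjusted p 0.0573 to 0.0786) and kept without KO 6 (0.0335). It was also lost with no filter (limma adjusted p = 0.068) and with a block for sample number over 6 samples (0.85, adjusted p = 0.108). With the Actb ratio as a covariate Atp5k was at 0.61 (adjusted p = 0.625), but there no gene of the 8077 passed. The suffix of its 2 brighter probe sets (_x_at) marks probes that may bind other transcripts.

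The other membrane subunits of the ATP synthase were at 0.23 for Atp5j2 (subunit f), 0.17 for Atp5l (subunit g), 0.26 for Atp5md and 0.22 for Atp5mpl, with adjusted p from 0.168 to 0.348. The first 2 of these had groups that did not overlap. In the peripheral stalk, which holds the catalytic head still, Atp5o (the subunit that confers oligomycin sensitivity) was at 10.23, 10.20, 9.92 and 10.20 across KO 4 to 7, against 9.63, 9.58 and 9.93 across WT 5 to 7. KO 6 lay just below WT 7 while the other KO samples were above WT, and the difference was 0.42 ± 0.12 (adjusted p = 0.0823). A dimmer probe set of Atp5o differed by 0.12, with overlapping groups. Atp5h (subunit d) was at 0.28 in its brightest probe set (adjusted p = 0.105) and at 0.63 in its dimmer one, both without overlap. Atp5pb (subunit b) was at 0.13 and 0.35, again without overlap, and Atp5j (subunit F6) at 0.12.

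In the catalytic head, Atp5b, the beta subunit that carries the catalytic sites, was at 10.76, 10.73, 10.75 and 10.63 across KO 4 to 7, against 9.77, 10.25 and 10.45 across WT 5 to 7. The 4 KO values lay close together above a wider spread in WT, with WT 5 the lowest, and the difference was 0.56 ± 0.15 (adjusted p = 0.0695). The other subunits of the head showed less, with Atp5d (delta) at 0.25, Atp5e (epsilon) at 0.25, Atp5a1 (alpha) at 0.13 and Atp5c1 (gamma) at 0.06. The 3 probe sets of Atp5a1 disagreed. The second, at 11.08, 11.07, 11.05 and 11.09 across KO 4 to 7, against 10.78, 10.52 and 10.66 across WT 5 to 7, was higher in KO by 0.42 and the dimmest, at 9.24, 9.42, 9.25 and 9.51 across KO 4 to 7, against 9.56, 9.84 and 9.95 across WT 5 to 7, lower, with a difference of -0.43, and neither had overlapping groups. A dimmer probe set of Atp5c1 was lower in KO, with a difference of -0.45, also without overlap.

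The c ring, which turns as protons pass, is built from the same mature protein made by 3 genes. Atp5g1 was at 0.44 (adjusted p = 0.18) and Atp5g2 at -0.18 (adjusted p = 0.409), with overlapping groups for both. Atp5g3 was at 13.19, 13.35, 13.26 and 13.26 across KO 4 to 7, against 13.13, 13.19 and 13.13 across WT 5 to 7. The groups barely missed overlapping, with KO 4 at 13.1867 and WT 6 at 13.1854, and the difference was only 0.11 ± 0.08 (adjusted p = 0.426).

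Several probe sets of a gene gave differences of unlike size. Among 25 genes with 2 or more probe sets above the filter, the second brightest differed more to the positive side than the brightest for 16 (64%), beside 60.5% of 2892 genes in the whole table. The median difference of these 25 was 0.14 in the brightest and 0.26 in the second probe set. Both probe sets had the same sign for 22 of the 25 (88%), beside 63.8% of all such genes. The exceptions were Atp5j2, at 0.23 and -0.13, Atp5c1 and Atp5g2.

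**Figure D4:**
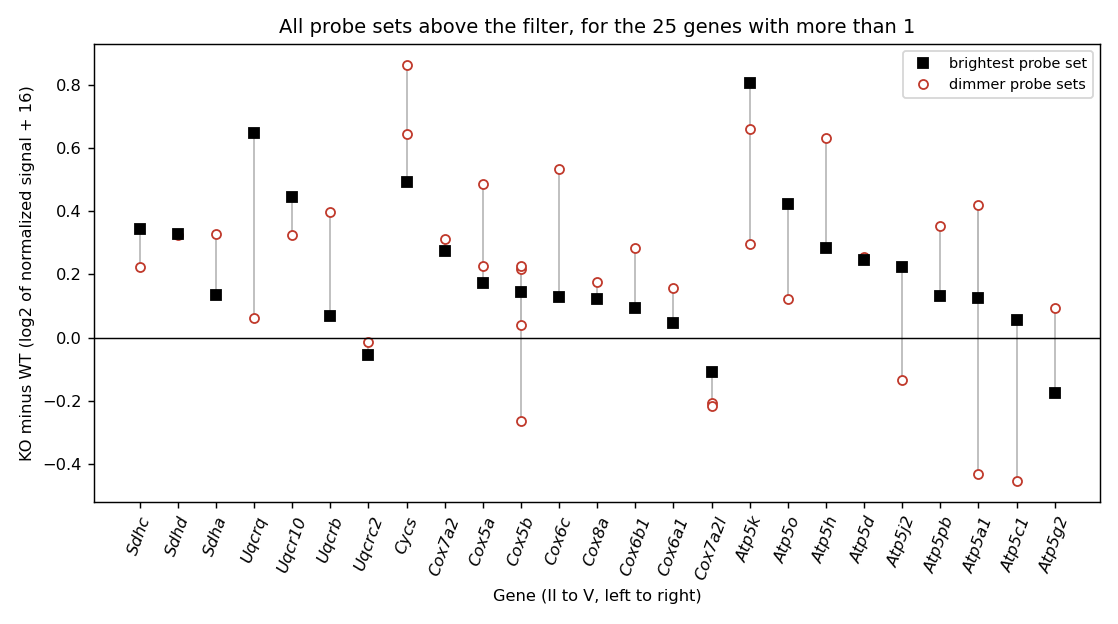
KO minus WT on the log2(normalized signal + 16) scale for every probe set above the filter of the 25 genes that have more than 1, with the brightest as a black square and dimmer ones as open circles. Cycs is at 0.49 or more in all 3 probe sets and Cox7a2l below 0 in all 3 (0.13 for its brightest in the scaling as deposited), while the 3 probe sets of Atp5a1 lie on both sides of 0.

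The other genes of the pathway include factors that assemble the complexes. Of 31 tested, 1 rose and none fell (limma, 3.23%, beside 2.48% of all tested genes that rose), 8 were higher and none lower at an unadjusted p under 0.05 (25.8%, beside 11.8% of all higher), and the median difference was 0.14. The gene that rose was Higd1a, a hypoxia-inducible protein that binds complex IV, at 10.66, 10.59, 10.57 and 10.62 across KO 4 to 7, against 10.06, 10.26 and 9.93 across WT 5 to 7. The groups did not overlap, and the difference was 0.53 ± 0.10 (adjusted p = 0.0287). Next in order of p were Atpaf2, which chaperones the alpha subunit of the ATP synthase, at 0.38 ± 0.10 (adjusted p = 0.058), and Coa3, a complex IV assembly factor, at 0.36 ± 0.12 (adjusted p = 0.11). Ndufa4, first counted with complex I and now known as a complex IV subunit, was at 0.54 ± 0.15 (adjusted p = 0.0735).

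Genes for making ubiquinone, the carrier into complex III, changed in both directions. Of 9 tested, 2 rose and 1 fell, beside 2.48% and 2.88% of all tested genes. Coq7, the hydroxylase of a late step, was at 8.22, 8.25, 7.97 and 8.63 across KO 4 to 7, against 7.57, 7.07 and 7.59 across WT 5 to 7 and rose by 0.86 ± 0.18 (adjusted p = 0.0377). Coq3, a methyltransferase of the same path, was at 8.16, 8.03, 8.07 and 7.93 across KO 4 to 7, against 7.65, 7.61 and 7.42 across WT 5 to 7 and rose by 0.49 ± 0.10 (adjusted p = 0.034). Coq8a, a kinase-like protein needed for the synthesis, was at 8.96, 8.86, 9.04 and 8.95 across KO 4 to 7, against 9.52, 9.26 and 9.40 across WT 5 to 7 and fell, with a difference of -0.44 ± 0.10 (adjusted p = 0.0408). None of these 3 had overlapping groups. With the Actb ratio as a covariate no gene of the 8077 passed in limma, these and Higd1a included.

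Other mitochondrial genes tested in the same fit had medians on the same side of 0. The complex I list took every symbol beginning with Nduf and the mitochondrial Nd genes. It therefore counts Ndufa4 and does not leave out assembly factors with an Ndufaf symbol. With 38 genes tested, it had 1 that rose (2.63%), none that fell and a median of 0.18. The mitochondrial ribosome, with 74, had 6 that rose (8.11%), none that fell and a median of 0.20. Of all tested genes 2.48% rose. Every KO sample was above every WT sample for 26.3% of the complex I list and 33.8% of the mitochondrial ribosome, against 40% here and 11.4% of all tested genes. The difference was above 0 for 89.5% and 85.1% of them, against 80% here and 47.7% of all. At an unadjusted p under 0.05 in limma, 28.9% and 39.2% were higher, against 35.6% here and 11.8% of all. The median here was 0.14, below that of both lists. No test of a difference between these groups was made.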

How the data were processed

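RNA of sorted LSK cells (15000 to 20000 cells per sample and about 10 ng of RNA, amplified, per the labels) was measured on 7 arrays. The authors deposited 1 linear signal intensity per probe set and array, made with MAS5, per the submitters' processing notes. The text given with the series states that the arrays were not scaled to each other. Version, settings and scaling target: not given in the sources used here. Of 22690 probe sets, 64 controls were left out, and 20380 of the rest had a single gene symbol in the platform annotation, 691 several and 1555 none. Intensities were quantile-normalized and taken as log2(signal + 16). A gene was tested through its brightest probe set (mean deposited signal over 7 arrays) among those whose mean lay above the 40th percentile. Genotypes were compared by limma (version 3.58.1, R 4.3.3) with genotype as the only term (residual degrees of freedom 5, Benjamini-Hochberg over 8077 genes, two-sided). The number of arrays limits the precision. Background is the 95th percentile of 15 dim control probe sets for bacterial transcripts that mouse cells do not make, over 105 readings. The members, lists and quantile scaling were chosen with earlier results of these data known. All members are accounted for. Values by sample are given for those past the threshold, the 3 of lowest p and the brightest of each complex, and complex II. Those of Cycs, Uqcrh, Cox7a2l and dimmer probe sets were chosen after their values were seen. The script was tested on simulated data. Alternatives covered scaling, pseudocount (1 or 64), filter (none or the 60th percentile), probe set, replicate block, Actb ratio and leaving out each sample.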

Additional observations from a re-analysis of the deposited data

Results flagged for a closer look

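In the KO group of 4 samples, 3 of the 45 tested genes had a sample far from the other 3, by a measure that chance meets in about 1 of 20 groups. In each case it was the lowest value and came from KO 6. Sdhb was at 11.06 in KO 6 and at 11.76 to 11.80 in the others. Atp5o was at 9.92 in KO 6 and at 10.20 to 10.23 in the others. Cox7a2l was at 12.99 in KO 6 and at 13.17 to 13.19 in the others. Without KO 6 the differences were 0.32 for Sdhb (limma adjusted p = 0.134), 0.495 for Atp5o (adjusted p = 0.0795) and -0.06 for Cox7a2l (adjusted p = 0.719), so that none passed either way. The groups of 3 WT samples were not examined in this way.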

How the results depend on the processing

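No respiratory gene of the 45 fell in any setting, and the median difference over them stayed above 0. With signals as deposited, 1371 genes of all tested were higher (17.0%) and 42 lower, and 17 of the 45 respiratory genes were higher. The respiratory median was 0.506, beside 0.343 over all genes, with Cox8c at 0.0411 and Cox7a2l at 0.13, above 0. Median centring gave 548 genes higher (6.79%), 7 of them respiratory, and 76.9% of calls higher. The respiratory median was then 0.239 beside 0.0756 over all genes, with Uqcrb at -0.106. A pseudocount of 64 gave 324 genes higher (4.01% of those tested) and 370 lower, with 6 of 45 respiratory genes higher. The filter at the 60th percentile gave 359 higher (6.1%) and 354 lower, with 7 of 42 respiratory genes higher. With no filter 28 genes were higher (0.23%) and 47 lower, 0 respiratory (limma, 13 of 47 respiratory genes higher at an unadjusted p under 0.05). The mean of probe sets gave a median of 0.216 and the calls Atp5k and Cycs. The second brightest probe set, an alternative chosen after seeing the data, gave 114 higher and 129 lower, a median of 0.216 and the same 2 genes. With the Actb ratio as a covariate, 0 genes were higher and 0 lower, 0 respiratory (1 at an unadjusted p under 0.05), their median was 0.0882, and Uqcr10 was at -0.0926 and Sdhb at -0.272. Samples of the same number correlated at 0.05, 0.08 and 0.06, each the best match but too low to take the numbers as a pairing. The replicate block over 6 samples gave 0 genes higher and 1 lower, 0 respiratory (limma, 9 higher at an unadjusted p under 0.05). In that fit Uqcrq was at 0.671 (adjusted p = 0.119) and Atp5k at 0.848 (adjusted p = 0.108). The share of all genes at an unadjusted p under 0.05 is given for the main fit only. Leaving out 1 sample in turn gave 9 to 75 genes higher and 36 to 113 lower, 0 to 2 respiratory genes higher and a median of 0.109 to 0.195; these fits have fewer samples, and the 2 calls remained only without KO 6. The filters also changed the number of genes tested. Why the counts and medians moved between settings was not tested. A signal near background limits Cox8b, Cox7a1, Cox4i2 and the dim probe sets.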
